A study of Mus musculus with 12 samples.

Results

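Notch receptors, Notch ligands and the genes that Notch signalling switches on were followed in mouse neural stem cells and in the cells obtained from them with LIF plus noggin or with BMP4. The set was chosen by symbol, with earlier results of these data known. It holds 10 genes, out of 17709 genes with a probe of their own on the array and 10787 that passed a filter on dim probes. They are the receptors Notch1 and Notch3, the ligands Dll1 and Dll3, the ligand-like protein Dner, the transcriptional targets Hes1, Hes5, Hey1 and Hey2, and Nrarp, a target that also restrains the pathway. Their symbols are carried by 11 probes, 1 for each gene and a second for Dner. All 10 genes passed the filter, which asked for a detection p-value under 0.05 on at least 4 of 12 arrays, so a gene bright in 1 group alone could pass.

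Notch receptors sit in the membrane of a cell and bind ligands of the Delta and Jagged families on its neighbour. Binding lets ADAM proteases and then gamma-secretase cut the receptor, and the freed intracellular domain moves to the nucleus, joins the DNA-binding protein Rbpj and a Mastermind coactivator, and switches on Hes and Hey genes. Hes and Hey proteins are repressors that hold back proneural genes, and in the developing forebrain Notch signalling is known for keeping stem cells undifferentiated and for favouring glial over neuronal fates.

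Subventricular tissue of CD1 mice at postnatal day 1 gave the cells, which were grown as neurospheres (floating clusters of neural stem cells) in EGF at 20 ng/ml. After passage 1 they were infected with a retrovirus, and cells expressing green fluorescent protein (GFP) were isolated by FACS. The Neurosphere group (4 arrays) carried a control GFP virus and was harvested as sorted neurospheres. The LIF_NOG group (4 arrays) carried a virus with GFP under the mouse GFAP promoter and was kept for 7 days with LIF, a cytokine that acts through gp130 and STAT3, at 20 ng/ml, plus noggin, an antagonist of BMPs, at 250 ng/ml. The BMP4 group (4 arrays) carried the same GFAP-GFP virus and was kept for 7 days with recombinant human BMP4, which acts through SMAD proteins, at 20 ng/ml. Both treated groups had EGF reduced to 1 ng/ml. Sorting is described before differentiation, and whether treated cells were sorted a second time at harvest is not given in the labels. Virus, EGF dose and time in culture changed together with the cytokine in both comparisons with Neurosphere and cannot be told apart from it there, while BMP4 against LIF_NOG shares all of these. Whether the 4 samples of a group are separate cultures or animals is not given in the labels, and p-values therefore cover the spread between these samples only, possibly technical.

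Each array detected between 38.6% and 42.0% of its probes. The astrocyte marker Gfap was detected on 1 of 4 Neurosphere arrays and on all treated arrays, and of the 13 tested genes of an astrocyte marker list 9 rose with LIF and noggin and 11 with BMP4, with none lower. Of all genes 16.5% rose with LIF and noggin and 26.6% with BMP4, by the calls defined below. The array LIF_NOG 2 lay away from LIF_NOG 1, 3 and 4, at 11.0 against 36.0 to 49.8 on the second principal component, and its Gfap level was log2 8.77 against 11.01 to 12.33. Member values without this array follow below. All levels below are log2 normalized intensities of a probe, which order the groups for 1 gene but do not rank genes against each other, and all are from RNA of whole samples, in which fewer cells of a type and less RNA per cell cannot be told apart.

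Promoters of 8 of the 10 genes were found in a RefSeq table of build GRCm38.p6, from 250 bases before to 10 bases after the annotated start. Hes1 and Hey1 had no entry in it, so their promoters were not searched. The core of the Rbpj site, GTGGGAA, was searched on both strands. Hes5 held 2 matches, with first bases 226 and 83 bases before the start, and Hey2 held 2, with first bases 207 and 4 bases before it, while the windows of the other members in the table held none. Of 32851 promoter windows of the same length 5.58% held at least 1 match. The STAT motif TTCNNNGAA, also searched on both strands, had no match in any of these genes, and 7.33% of all windows held it. A match is a run of letters, not a measured binding site. The promoters of Hes5 (chr4:154960673-154960932, plus strand) and Hey2 (chr10:30842774-30843033, minus strand) are shown because they hold the matches, in capitals on the strand of the gene, yet the genes differed in their response. That of Nrarp (chr2:25180508-25180767, plus strand) is shown because it holds none and belongs to the member with the greatest fall.
Hes5: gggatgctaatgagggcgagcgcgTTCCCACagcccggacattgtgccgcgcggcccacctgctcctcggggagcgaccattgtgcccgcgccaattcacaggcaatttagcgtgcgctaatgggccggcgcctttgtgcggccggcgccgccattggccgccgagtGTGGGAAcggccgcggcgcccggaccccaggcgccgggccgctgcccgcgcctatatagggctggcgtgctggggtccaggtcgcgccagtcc
Hey2: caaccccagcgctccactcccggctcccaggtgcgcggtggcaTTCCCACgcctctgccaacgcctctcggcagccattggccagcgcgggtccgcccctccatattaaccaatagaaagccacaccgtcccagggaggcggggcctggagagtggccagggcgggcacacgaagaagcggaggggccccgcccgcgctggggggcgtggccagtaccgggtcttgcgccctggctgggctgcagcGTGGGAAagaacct
Nrarp: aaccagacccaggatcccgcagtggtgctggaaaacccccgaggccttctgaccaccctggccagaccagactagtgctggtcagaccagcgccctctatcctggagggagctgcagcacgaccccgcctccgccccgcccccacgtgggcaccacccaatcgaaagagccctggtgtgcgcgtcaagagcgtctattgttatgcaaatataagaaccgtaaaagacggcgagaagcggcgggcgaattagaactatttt

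Both treatments raised Notch1, Hes1, Hey1 and Hey2, but they parted over the ligands, Hes5 and Nrarp. A block for the 2 row orders of the deposited tables, described below, ended 1 of these calls, that of Hes1 with BMP4 (adjusted p = 0.0628). LIF and noggin raised Hes5 and left Dll1, Dll3 and Nrarp without a called change. BMP4 lowered Dll1, Dll3 and Nrarp, raised Notch3 and Dner, and left Hes5 without a called change. Under limma, with p-values adjusted by Benjamini-Hochberg over all 10787 genes and a call at an adjusted p under 0.05, LIF and noggin changed 5 of the 10 genes, where 33.1% of all genes were called. All 5 were higher, as were 16.5% of all genes. BMP4 changed 9 of 10 against Neurosphere, where 54.3% of all genes were called. Of these 9, 6 were higher and 3 lower, beside 26.6% and 27.7% of all genes. Between the treatments 9 of 10 differed, where 43.9% of all genes were called. With BMP4 4 were higher and 5 lower, beside 20.7% and 23.2% of all genes. Groups did not overlap for 5, 9 and 7 of the 10 genes in these comparisons, against 31.6%, 52.9% and 37.1% of all genes. The median log2 change of the members was 0.79, 0.78 and -0.60, beside -0.01, 0.00 and -0.00 for all genes.

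**Figure D1:**
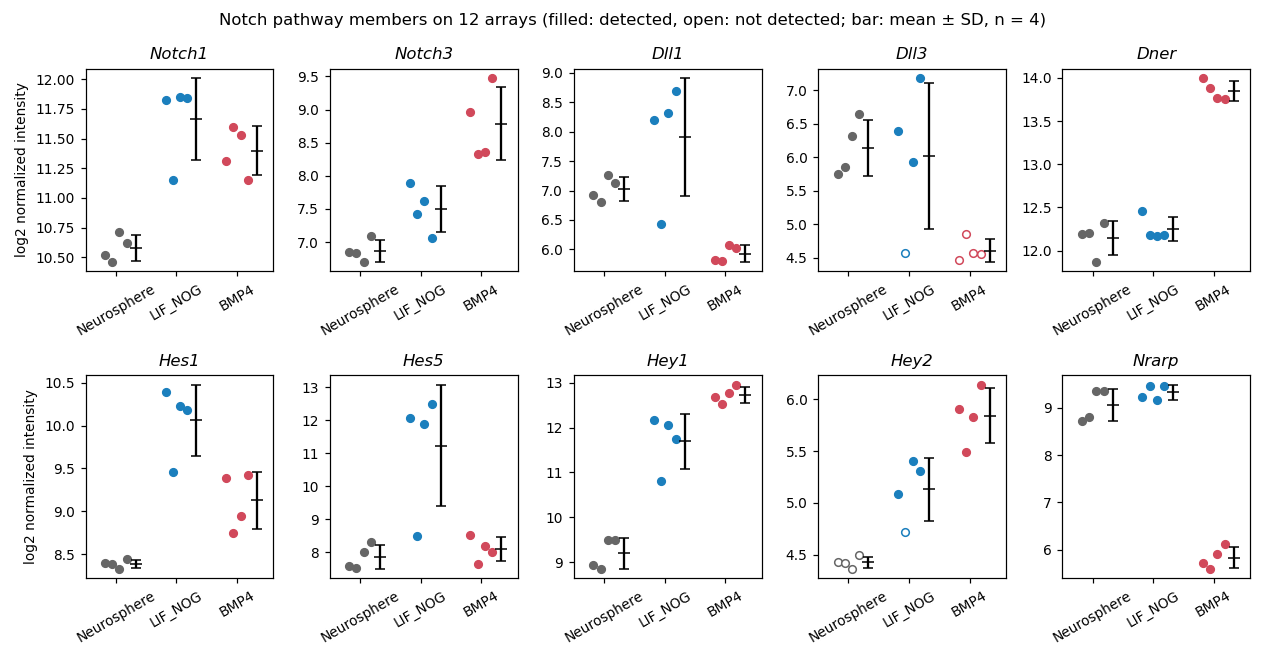
Log2 normalized intensity (vertical axis, a separate scale for each gene) of the 10 genes on each of 12 arrays, by group; filled points are detected, open points are not, and bars give mean ± SD (n = 4). The BMP4 points of Nrarp lie at 5.60 to 6.12, below all others of that gene (8.73 to 9.47), and the lowest LIF_NOG point of Hes5 (8.50) lies beside the BMP4 group while the other LIF_NOG points reach 11.87 to 12.49.

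Notch1, a main receptor of neural stem cells, stood at 10.52, 10.46, 10.71 and 10.62 on Neurosphere arrays 1 to 4. On the LIF_NOG arrays it was 11.83, 11.15, 11.85 and 11.85, and on the BMP4 arrays 11.31, 11.60, 11.53 and 11.15. Every treated array was above every Neurosphere array, and the treated groups overlapped each other. Notch1 rose 2.13-fold with LIF and noggin (log2 change 1.09 ± 0.17, SE of limma, adjusted p = 0.000291) and 1.77-fold with BMP4 (0.82 ± 0.17, adjusted p = 0.000742). The difference between the treatments was -0.27 ± 0.17 and was not called (adjusted p = 0.217). Without LIF_NOG 2, the array with the low value of 11.15, that difference was -0.44 and was called (adjusted p = 0.0131).

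Notch3, a receptor best known from mural cells of blood vessels and also made by glial progenitors, stood at 6.84, 6.83, 6.70 and 7.08 on the Neurosphere arrays and at 7.89, 7.42, 7.62 and 7.06 on the LIF_NOG arrays. The BMP4 arrays gave 8.97, 8.33, 8.36 and 9.48. All 4 BMP4 arrays were above all others, and LIF_NOG 4 fell within the Neurosphere range. Notch3 rose 3.78-fold with BMP4 against Neurosphere (1.92 ± 0.24, adjusted p = 1.16e-05) and was 2.44-fold higher than in LIF_NOG (1.29 ± 0.24, adjusted p = 0.000628). Its change with LIF and noggin, 0.63 ± 0.24, missed the threshold (adjusted p = 0.0588) and passed it under 6 of 23 alternative settings, among them those without LIF_NOG 4 (0.78, adjusted p = 0.0326) and without BMP4 4 (0.63, adjusted p = 0.0209). BMP4 4 gave the highest Notch3 level of all arrays.

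Markers of mural cells were set beside Notch3. Of 8 pericyte and smooth muscle markers 4 passed the filter, and Abcc9, Anpep, Kcnj8 and Myh11 did not. With BMP4 against Neurosphere, Rgs5 and Tagln, which were detected on none of the Neurosphere arrays and on all 4 BMP4 arrays, were called higher, Acta2 fell by 2.86 on the log2 scale, and Pdgfrb was at 4.89 against 4.75 (adjusted p = 0.341). The summed intensity of the 4 markers was 6459 to 9209 in Neurosphere, 1263 to 5548 in LIF_NOG and 1098 to 1318 in BMP4, most of it from Acta2. The part of such cells in the Notch3 level was not tested.

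Dll1, a Delta ligand that neural progenitors present to their neighbours, stood at 6.92, 6.81, 7.26 and 7.13 on the Neurosphere arrays. On the LIF_NOG arrays it was 8.20, 6.43, 8.32 and 8.69, and on the BMP4 arrays 5.81, 5.80, 6.07 and 6.03. LIF_NOG 1, 3 and 4 were above every Neurosphere array and LIF_NOG 2 was below them all, while the BMP4 arrays were the lowest of the 3 groups. Dll1 was lower with BMP4 than in Neurosphere by a log2 change of -1.11 ± 0.36 (adjusted p = 0.0168) and 3.95-fold lower than in LIF_NOG (-1.98 ± 0.36, adjusted p = 0.000455). The fall against Neurosphere was not called without background correction (-0.62, adjusted p = 0.0691) or in the authors' processed values (-0.44, adjusted p = 0.118). With LIF and noggin the change was 0.88 ± 0.36 and was not called (adjusted p = 0.0747), but without LIF_NOG 2 it was 1.37 and was called (adjusted p = 1.29e-05).

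Dll3 is a divergent Delta protein that does not activate Notch on neighbouring cells and is known to inhibit it within the cell that makes it. It stood at 5.76, 5.85, 6.32 and 6.65 on the Neurosphere arrays, at 6.39, 4.58, 5.94 and 7.19 on the LIF_NOG arrays and at 4.46, 4.85, 4.57 and 4.55 on the BMP4 arrays. It was detected on all Neurosphere arrays, on LIF_NOG 1, 3 and 4, and on none of the BMP4 arrays. Undetected BMP4 values were raised to the detection floor of their array (log2 4.80 to 4.92 over all arrays), and the undetected LIF_NOG 2 value was kept. Under the main processing Dll3 was then at least 2.43-fold lower with BMP4 than in Neurosphere (adjusted p = 0.00493 with limma). It was at least 2.23-fold lower than in LIF_NOG (adjusted p = 0.0110). Across the 23 alternative settings, with no value raised, the smallest log2 change was -0.40 in both comparisons. The BMP4 and LIF_NOG groups overlapped through LIF_NOG 2, and without that array the call was kept (adjusted p = 5.01e-05). The change of -0.12 ± 0.40 with LIF and noggin was not called (adjusted p = 0.865), and its sign turned to 0.36 without LIF_NOG 2 (adjusted p = 0.324).

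Dner, a transmembrane protein with EGF repeats that has been described as a Notch ligand of neurons acting on Bergmann glia, went the other way. It stood at 12.19, 12.20, 11.87 and 12.32 on the Neurosphere arrays and at 12.45, 12.19, 12.17 and 12.18 on the LIF_NOG arrays. The BMP4 arrays gave 14.00, 13.89, 13.76 and 13.75. The Neurosphere and LIF_NOG groups overlapped and the BMP4 group lay above both. Dner was 3.26-fold higher with BMP4 than in Neurosphere (1.70 ± 0.13, adjusted p = 9.53e-08) and 3.04-fold higher than in LIF_NOG (1.60 ± 0.13, adjusted p = 3.25e-07). The LIF_NOG change of 0.10 ± 0.13 was not called (adjusted p = 0.609). A second Dner probe was detected on none of the 12 arrays, so the Dner result rests on 1 probe.

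Oligodendrocyte progenitors are known to make Dll1 and Dll3, and their markers were set beside both ligands. All 6 listed markers were tested, 5 fell with BMP4 against Neurosphere and none rose, with a median log2 change of -1.74. Of all genes 27.7% were called lower and 26.6% higher in that comparison. Pdgfra, the PDGF receptor of these progenitors, fell by 2.98 on the log2 scale (adjusted p = 4.01e-08 with limma), and Sox10, their defining transcription factor, was detected on all Neurosphere and no BMP4 arrays. The summed level of the 6 markers was 25953 to 31359 in Neurosphere, 28309 to 32228 in LIF_NOG and 28001 to 30117 in BMP4. Most of this sum came from Olig1, which was not called in any comparison (14.64, 14.76 and 14.80 in Neurosphere, LIF_NOG and BMP4). LIF and noggin lowered 2 of the 6, beside 16.5% of all genes. All 5 tested markers of myelinating oligodendrocytes rose with LIF and noggin, where 16.5% of all genes were called higher. Mobp and Mog of that list did not pass the filter. The summed level of the 5 was 2979 to 7822 in LIF_NOG, against 323 to 609 in Neurosphere and 195 to 312 in BMP4. Markers of neurons were set beside the ligands too, with 12 tested. With LIF and noggin 3 rose and none fell, beside 16.5% and 16.5% of all genes. With BMP4 5 rose and 1 fell against Neurosphere, beside 26.6% and 27.7%. Against LIF_NOG 2 were higher and 4 lower with BMP4, beside 20.7% and 23.2%. Their summed level was 1053 to 1333 in Neurosphere, 1519 to 3386 in LIF_NOG and 1645 to 3281 in BMP4. The part of oligodendrocyte lineage cells or of neurons in the levels of Dll1, Dll3 and Dner was not tested.

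Hes1, a repressor that Notch and also other signals switch on in neural progenitors, stood at 8.39, 8.39, 8.33 and 8.44 on the Neurosphere arrays. It was 10.39, 9.45, 10.23 and 10.18 on the LIF_NOG arrays and 9.39, 8.75, 8.95 and 9.42 on the BMP4 arrays. The 3 groups did not overlap and stood in the order Neurosphere, BMP4, LIF_NOG. Hes1 rose 3.19-fold with LIF and noggin (1.68 ± 0.20, adjusted p = 4.84e-05) and 1.67-fold with BMP4 (0.74 ± 0.20, adjusted p = 0.00589). The BMP4 call did not hold once the row-order set was a block (0.68, adjusted p = 0.0628) or within set B (0.74, adjusted p = 0.102). It was 1.91-fold lower with BMP4 than with LIF and noggin (-0.94 ± 0.20, adjusted p = 0.00165).

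Hes5, the Hes gene of the forebrain that depends most closely on Notch, stood at 7.60, 7.53, 8.01 and 8.30 on the Neurosphere arrays and at 8.54, 7.64, 8.20 and 8.02 on the BMP4 arrays. On the LIF_NOG arrays it was 12.07, 8.50, 11.87 and 12.49. LIF_NOG 1, 3 and 4 were far above all other arrays, and LIF_NOG 2 was just above the Neurosphere range and below BMP4 1. Hes5 rose 10.3-fold with LIF and noggin (3.37 ± 0.64, adjusted p = 0.00141) and was 8.78-fold lower with BMP4 than with LIF and noggin (-3.13 ± 0.64, adjusted p = 0.00125). Without LIF_NOG 2 these log2 changes were 4.28 (adjusted p = 3.66e-08) and -4.05 (adjusted p = 1.15e-08). Its change with BMP4 against Neurosphere was 0.24 ± 0.64 and was not called (adjusted p = 0.791); its SE is near the size of the Hes1 change in that comparison.

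Hey1, a repressor related to the Hes proteins, stood at 8.94, 8.85, 9.50 and 9.48 on the Neurosphere arrays. It was 12.16, 10.81, 12.06 and 11.75 on the LIF_NOG arrays and 12.68, 12.53, 12.77 and 12.96 on the BMP4 arrays. The groups did not overlap, and their order, Neurosphere, LIF_NOG, BMP4, was not that of Hes1. Hey1 rose 5.67-fold with LIF and noggin (2.50 ± 0.26, adjusted p = 1.58e-05) and 11.7-fold with BMP4 (3.54 ± 0.26, adjusted p = 7.94e-08). BMP4 was 2.06-fold above LIF_NOG (1.04 ± 0.26, adjusted p = 0.00473), and 0.75 on the log2 scale above it without LIF_NOG 2 (adjusted p = 0.00404).

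Hey2, the close relative of Hey1, was dim. It stood at 4.43, 4.42, 4.36 and 4.50 on the Neurosphere arrays, where it was not detected. The LIF_NOG arrays gave 5.08, 4.72, 5.41 and 5.31, with LIF_NOG 2 undetected, and the BMP4 arrays gave 5.91, 5.50, 5.83 and 6.14. The groups did not overlap and followed the same order as for Hey1. Against a detection floor in place of the Neurosphere values, and with the undetected LIF_NOG 2 value kept, bounds were set under the main processing. Hey2 was at least 1.18-fold higher with LIF and noggin (adjusted p = 0.00507 with limma) and at least 1.93-fold higher with BMP4 (adjusted p = 5.45e-06). Across the 23 alternative settings, with no floor applied, the smallest log2 changes were 0.17 and 0.35. BMP4 was 1.64-fold above LIF_NOG (0.71 ± 0.16, adjusted p = 0.00289), but this call was lost once the row-order set was a block (0.62, adjusted p = 0.0506) and within set B (0.53, adjusted p = 0.207). The call with LIF and noggin was lost within set A (adjusted p = 0.0598).

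Hey1 and Hey2 are also made by endothelial cells, whose markers were set beside them. Of 8 endothelial markers 4 passed the filter, and the defining genes Cdh5, Pecam1 and Tek did not. None of the 4 was called with BMP4 against Neurosphere, where 54.3% of all genes were called. Their summed level was 118 to 148 in Neurosphere and 113 to 152 in BMP4. With LIF and noggin 1 of the 4 was called higher, beside 16.5% of all genes. It was the VEGF receptor gene Flt1 (adjusted p = 0.0267 with limma, 0.0505 to 0.0668 without Neurosphere 1, 2 or 3). The summed level of the 4 was 142 to 589 in LIF_NOG.

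Nrarp, an ankyrin repeat protein that is switched on by Notch and promotes loss of the Notch intracellular domain, fell furthest of the 10 genes. It stood at 8.73, 8.81, 9.36 and 9.35 on the Neurosphere arrays and at 9.23, 9.47, 9.17 and 9.47 on the LIF_NOG arrays. On the BMP4 arrays it was 5.71, 5.60, 5.91 and 6.12. The first groups overlapped, and the BMP4 arrays lay well below both. Nrarp was 9.35-fold lower with BMP4 than in Neurosphere (-3.23 ± 0.17, adjusted p = 4.18e-09) and 11.3-fold lower than in LIF_NOG (-3.50 ± 0.17, adjusted p = 3.61e-09). Across the 23 alternative settings the smallest log2 changes were -1.81 against Neurosphere and -2.03 against LIF_NOG. With LIF and noggin the change of 0.27 ± 0.17 was not called (adjusted p = 0.254). Genes listed here as targets of Notch moved in opposite directions in the same BMP4 samples. Hey1 and Hey2 were higher and Nrarp lower in all 4 arrays against all Neurosphere arrays. The part of Notch signalling in either direction was not tested.

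**Figure D2:**
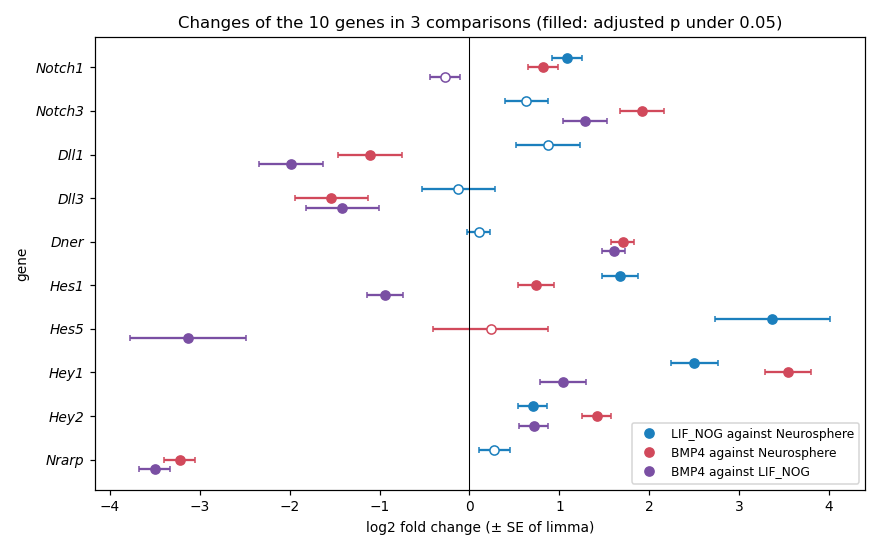
Log2 fold change (horizontal axis, ± SE of limma) of the 10 genes in the 3 comparisons; filled points have an adjusted p under 0.05. Points of Hey2 against Neurosphere and of Dll3 with BMP4 are fitted values and no folds, since 1 group detected the gene on no array. LIF_NOG against Neurosphere has its called points to the right of 0, up to Hes5 (3.37), while BMP4 against Neurosphere runs from Nrarp (-3.23) to Hey1 (3.54).

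LIF_NOG 2 was the lowest array of its group for 7 of the 10 genes, where 36.1% of all 10787 genes had it lowest. The 7 were Notch1, Dll1, Dll3, Hes1, Hes5, Hey1 and Hey2. Its Nrarp level, 9.47, was the highest of its group. For Hes1, Hey1, Hey2 and Notch1 it stayed above the Neurosphere range, for Hes5 it was just above it, and for Dll1 and Dll3 it was below it. Without LIF_NOG 2 the calls with LIF and noggin were kept for Notch1 (1.26, adjusted p = 7.23e-06), Hes1 (1.88, adjusted p = 1.41e-06), Hey1 (2.80, adjusted p = 1.75e-07), Hes5 and Hey2 (adjusted p = 0.000468 for Hey2), and Dll1 was added as above. Notch3 (0.66, adjusted p = 0.0589), Dner (0.12, adjusted p = 0.542) and Nrarp (0.23, adjusted p = 0.368) were again not called. Between BMP4 and LIF_NOG all 9 calls were kept without it. There Notch3 was 1.26 (adjusted p = 0.00116), Dll1 -2.48 (adjusted p = 2.29e-08), Dner 1.58 (adjusted p = 5.91e-07), Hes1 -1.14 (adjusted p = 4.9e-05), Hey2 0.57 (adjusted p = 0.00562) and Nrarp -3.45 (adjusted p = 6e-09). Its part in the results was not tested beyond leaving it out.

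**Figure D3:**
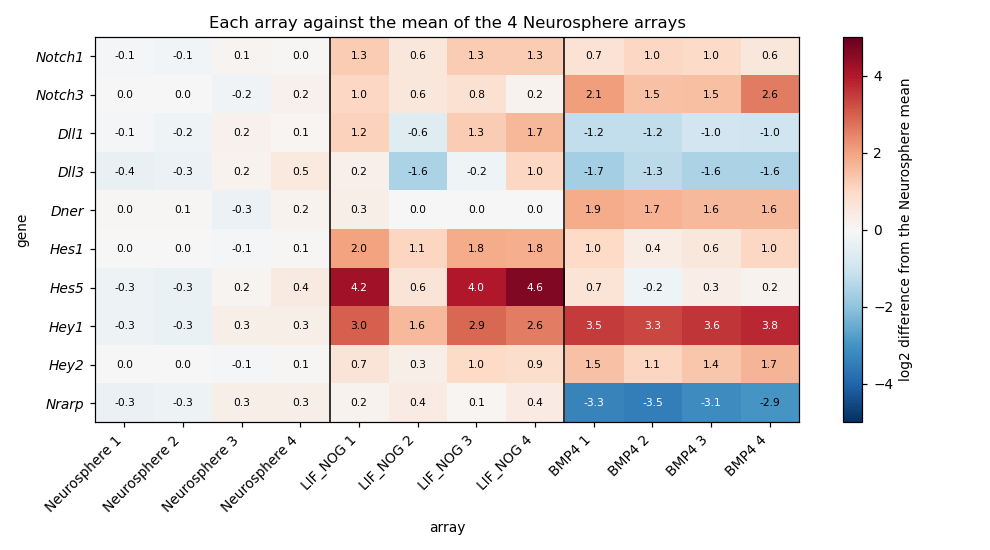
Difference of each array (columns) from the mean of the 4 Neurosphere arrays for each of the 10 genes (rows), on the log2 scale given by the colour bar and printed in each cell. LIF_NOG 2 stands at 0.6 for Hes5 where the other LIF_NOG arrays stand at 4.0 to 4.6, and the BMP4 columns are alike across Nrarp (-3.5 to -2.9) and Hey1 (3.3 to 3.8).

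Arrays also fell into 2 sets by the order of rows in the deposited tables, set A with Neurosphere 2 to 4 and LIF_NOG 1 to 3 and set B with the rest, all BMP4 arrays included. With the set as a block, the calls of Hes1 with BMP4 against Neurosphere and of Hey2 with BMP4 against LIF_NOG were lost, as given above, and the uncalled Hes5 change with BMP4 against Neurosphere turned to -0.26 (adjusted p = 0.838). The other member calls held with the block. Nrarp was then -3.13 (adjusted p = 6.65e-07 with limma) and Hey1 3.64 (adjusted p = 5.69e-06) with BMP4 against Neurosphere. For LIF_NOG against Neurosphere the block could not move the log2 changes, since both groups are split alike over the sets. Only the p-values could change there, as for Hes5 (3.37, adjusted p = 0.00191). Within set A alone, Notch1, Hes1 and Hey1 stayed called with LIF and noggin, at 1.01, 1.64 and 2.40, while Hes5 was 2.86 (adjusted p = 0.056) and Hey2 was not called. Within set B, where Neurosphere and LIF_NOG have 1 array each whose spread is taken from the other arrays, BMP4 against Neurosphere kept the calls of Notch1 (0.88), Notch3 (1.94), Dll1 (-0.997), Dner (1.66), Hey1 (3.79) and Nrarp (-2.89), and those of Dll3 (adjusted p = 0.00672) and Hey2 (adjusted p = 0.00651), but not that of Hes1. BMP4 against LIF_NOG within set B kept all its member calls but that of Hey2.

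The rest of the pathway was read from a list of 65 further genes, of which 58 were on the array and 46 were tested. Notch2, Jag1, Jag2, Dll4 and Heyl were among the 12 that did not pass the filter. With LIF and noggin 9 of the 46 rose and 3 fell, with BMP4 against Neurosphere 16 rose and 10 fell, and with BMP4 against LIF_NOG 9 were higher and 8 lower. The medians of the list were 0.02, 0.06 and -0.02 on the log2 scale. As shares of the 46, 19.6% were higher and 6.52% lower with LIF and noggin, beside 16.5% and 16.5% of all genes. With BMP4 34.8% were higher and 21.7% lower, beside 26.6% and 27.7%, and against LIF_NOG 19.6% and 17.4%, beside 20.7% and 23.2%. Without LIF_NOG 2 the count with LIF and noggin was 13 higher and 7 lower.

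Proteases that cut the receptor, and their subunits, were tested for 8 genes, of which 6 rose with BMP4 against Neurosphere and none fell, where 26.6% of all genes were called higher and 27.7% lower. Psen2, a catalytic subunit of gamma-secretase, rose by 1.16 ± 0.14 (adjusted p = 9.05e-06 with limma), and Aph1a and Aph1b, its scaffold subunits, were called higher by 0.52 and 0.58. Psenen, Adam17 and Furin were the other members called, by 0.42, 0.38 and 0.60. A block for the row-order set ended the calls of Aph1a, Psenen and Adam17 (adjusted p = 0.104, 0.148 and 0.106), and not those of Psen2, Aph1b and Furin. LIF and noggin raised 2 of the 8, where 16.5% of all genes were called higher. Psen2 rose by 0.44 and Furin by 0.47. Both calls were lost on leaving out single arrays (adjusted p with limma of 0.0924 for Psen2 and 0.109 for Furin without Neurosphere 1, for example). Against LIF_NOG, BMP4 had 5 of the 8 higher and 1 lower, the gamma-secretase subunit Ncstn (-0.49, adjusted p = 0.00388 with limma). Of all genes 20.7% were called higher and 23.2% lower there.

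Among modifiers of the receptor, Mfng, a Fringe glycosyltransferase that alters how Notch answers its ligands, was 7.34 ± 0.50 in Neurosphere, 8.29 ± 1.17 in LIF_NOG and 5.16 ± 0.43 in BMP4 (SD, n = 4). It was lower with BMP4 by -2.18 ± 0.45 against Neurosphere (adjusted p = 0.000951 with limma) and by -3.14 ± 0.45 against LIF_NOG (adjusted p = 7.9e-05), and its change of 0.96 with LIF and noggin was not called (adjusted p = 0.127), but it was called without LIF_NOG 2 (adjusted p = 0.0011). Its relatives Lfng and Rfng were not called in any of the 3 comparisons. Dtx1, a Deltex ubiquitin ligase that binds Notch, rose by 2.19 ± 0.23 with BMP4 (adjusted p = 1.97e-06) and was at 0.36 with LIF and noggin (adjusted p = 0.267). Dtx3, another Deltex protein, rose with both, by 1.21 and 1.61.

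In the nucleus, Rbpj was not called in any comparison (5.48, 5.54 and 5.56 in Neurosphere, LIF_NOG and BMP4). Its probe was detected on all arrays but was dim in all groups, beside a detection floor of 4.80 to 4.92, which limits what it could show. Maml1, a Mastermind coactivator that joins Rbpj on Notch targets, fell with BMP4 by 1.44 on the log2 scale (adjusted p = 4.92e-06 with limma). Across the 23 alternative settings the smallest log2 change was -0.54. With LIF and noggin Maml1 was at 0.09 (adjusted p = 0.726). The other listed Mastermind genes, Maml2 and Maml3, were not among the genes tested. Of the Groucho corepressors, partners of Hes proteins, Tle1 rose with LIF and noggin by 1.44 ± 0.19 (adjusted p = 0.000118) and was at -0.09 with BMP4 (adjusted p = 0.733), and the difference between the treatments was called at -1.53 (adjusted p = 2.4e-05). Tle2 was lower with BMP4 by -2.25 ± 0.31 (adjusted p = 3.05e-05), and its change of -0.79 with LIF and noggin was not called (adjusted p = 0.0705). Between the treatments Tle2 differed by -1.46 (adjusted p = 0.00178), a call lost with the set as a block (adjusted p = 0.0702). Tle3 was not called in any comparison, and was detected on only 3, 2 and 3 of 4 arrays in Neurosphere, LIF_NOG and BMP4. Kat2b, an acetyltransferase detected on 1 of 4 Neurosphere arrays, was called higher with both treatments, at 4.79, 5.53 and 6.15 in the 3 groups. Ccnd1, the cyclin of the G1 phase and a gene that Notch and growth factors are known to act on, was at 13.60 ± 0.09 in Neurosphere, 12.82 ± 1.16 in LIF_NOG and 8.90 ± 0.10 in BMP4, and had a log2 change of -4.70 ± 0.40 with BMP4 (adjusted p = 3.12e-07 with limma).

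**Figure D4:**
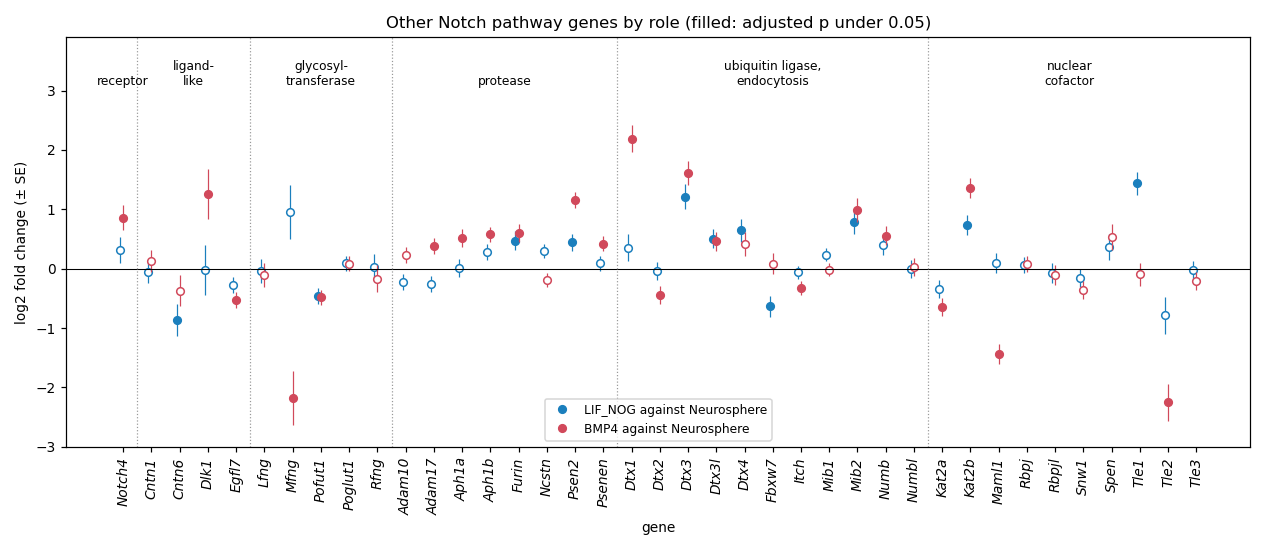
Log2 fold change (vertical axis, ± SE of limma) of further Notch pathway genes against Neurosphere, grouped by role; filled points have an adjusted p under 0.05. Protease genes with BMP4 lie at or above 0 except Ncstn (-0.18), Dtx1 is highest (2.19), and Tle2 (-2.25) and Mfng (-2.18) are lowest.

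Hes and Hey proteins act on basic helix-loop-helix (bHLH) genes, and a list of 18 proneural and related bHLH genes had 17 on the array and 14 tested. LIF and noggin raised 2 and lowered 2, with BMP4 5 rose and 4 fell against Neurosphere, and BMP4 had 5 higher and 5 lower than LIF_NOG. As shares of the 14, 14.3% were higher and 14.3% lower with LIF and noggin, beside 16.5% and 16.5% of all genes. With BMP4 35.7% were higher and 28.6% lower, beside 26.6% and 27.7%. Against LIF_NOG the shares were 35.7% and 35.7%, beside 20.7% and 23.2%. The list medians were 0.08, 0.09 and 0.06. The genes that rose most were Id genes, inhibitors of bHLH proteins that BMP signalling is known to switch on. Id4 was 5.51 ± 0.27 in Neurosphere, 7.87 ± 0.76 in LIF_NOG and 10.30 ± 0.27 in BMP4 (SD, n = 4), and was called in all 3 comparisons. Id2 rose by 4.54 ± 0.24 with BMP4 (adjusted p = 3.34e-09 with limma) and Id1 by 3.14 ± 0.19 (adjusted p = 1.6e-08), while with LIF and noggin Id1 fell by 0.90 on the log2 scale (adjusted p = 0.00303), but over the mean of its probes the change was -0.37 and not called (adjusted p = 0.104). Tcf12, an E protein that pairs with proneural factors, fell with BMP4 by 2.32 on the log2 scale (adjusted p = 2.86e-08). Olig2, a bHLH factor of the oligodendrocyte lineage, fell with both treatments (log2 changes -0.88 and -1.51). Atoh8, another bHLH gene of the list, was called higher with BMP4 than in Neurosphere (adjusted p = 1.18e-07 with limma) and in LIF_NOG (adjusted p = 2.26e-07). It was at 6.89 in BMP4 and at 4.39 in both other groups, where no array detected it. Of proneural genes, Neurod1 was lower with BMP4 than in Neurosphere (-0.40, adjusted p = 0.0236) and Neurog2 lower than in LIF_NOG (-0.50, adjusted p = 0.0256). These calls were lost under 9 and 7 of 23 alternative settings, and BMP4 arrays detected the genes on 1 and 3 of 4. Atoh1, Neurod2 and Neurod4 did not pass the filter.

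The genes whose levels over the 12 arrays were most like each member were named by the Pearson correlation, as a description, since the arrays of a group share their treatment. Nrarp was most like Gprin1 (r = 0.99), Bcas1 and Ywhaq, and Dner most like Adam23 (r = 0.99), Aqp11 and Farp1. Hey1 was most like Prnp (r = 0.99), Apoc1 and Ednrb, and Hey2 most like Ctsd (r = 0.98), Parm1 and Tpcn1. Hes5 was most like Lrrtm2 (r = 0.98), Htr3a and Bbs9, and Hes1 most like Cp (r = 0.97), Pgf and Ranbp9. Dll1 was most like Dleu7 (r = 0.98), Cd1d1 and Atxn7l2, and Dll3 most like Khdc4 (r = 0.97), Plxnb3 and Rhebl1. For Notch1 the nearest were Car11 (r = 0.97), Bcas3 and Abcg1, and for Notch3 Grb14 (r = 0.98), Manea and Cmtm6. No member was among the 3 nearest genes of another.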

How the data were processed

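Each of the 12 samples was hybridized to an Illumina mouse bead array. One deposited table holds an intensity per probe and array that, per the file headers, is non-normalized. A detection p-value is deposited beside each intensity. The other deposited table holds an intensity processed by the authors, quantile normalized on a linear scale as its values show; its background step is not given in the sources used here. BeadStudio 3 and lumi 2.15.1 appear, with no stated role, per the submitters' processing notes. Probe symbols come from the platform annotation in GEO.

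Rows stood in 2 orders. Neurosphere 1 in the raw table, and Neurosphere 1, LIF_NOG 4 and BMP4 1 to 4 in the authors' table, were in the other order, and were realigned by the ranks of the 5 arrays that stand in a different order in each table. Of 46630 rows 46617 were matched, with a median distance in rank of 0.000142, and 0.0214 to the next candidate. The rank correlation of Neurosphere 1 with the raw columns was 0.0104 before and 0.916 to 0.928 with its own group after. With 11 repeated IDs left out, 46609 probes remained, 29962 with 1 symbol, 10 with several and 16637 with none. No per-sample column was left unused (0 columns).

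Signals were processed with limma's neqc (limma 3.58.1, R 4.3.3), which applies normexp with an offset of 16 and negative controls taken from the detection p-values, then quantile normalization and log2. Probes detected at p under 0.05 on at least 4 of 12 arrays were kept (20310, of which 15360 have 1 symbol), and the brightest represented a gene, which gave 10787 genes. A model of group means over the 12 arrays was fitted by lmFit and eBayes (degrees of freedom 9 residual, 4.60 prior), with two-sided Benjamini-Hochberg adjusted p-values over all genes. The procedure was tested on simulated data. Where a group detected a gene on none of its arrays, the fold printed is a lower bound under the main processing. Values of that group under the floor were set to it, and those of the other group were kept. The p-values are those of the fit, and figures show its values. Tables were made with Python 3.11.15, pandas 2.3.3, numpy 2.4.6 and scipy 1.17.1, and figures with matplotlib 3.10.9. Alternatives (23 per comparison) varied normalization, background, table, filter, probe rule, blocks, weights and replicates. The number of arrays limits the precision.

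The members, the gene lists and the alternatives were chosen with earlier results of these data known. Text names all 10 members, up to 4 called genes per direction of each list and comparison, any list gene that a sentence on a member or role turns on, and the 3 most similar genes per member. A RefSeq promoter table (GRCm38.p6) gave sequences, and no build is named by the array files.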

Additional observations from a re-analysis of the deposited data

Results flagged for a closer look

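In 3 of the 30 gene and group combinations of 4 arrays, 1 array lay farther from the others than Dixon's critical value, where chance gives about 1 in 20. Notch1 on LIF_NOG 2 was at log2 11.15 against 11.83 to 11.85 on the other LIF_NOG arrays. Hes5 on LIF_NOG 2 was at 8.50 against 11.87 to 12.49. Dner on LIF_NOG 1 was at 12.45 against 12.17 to 12.19.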

How the results depend on the processing

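Of 690 alternative values for the 10 genes (23 settings, 3 comparisons), 666 kept their direction and their side of the threshold, 8 lost a call, 10 gained one and 6 turned in sign, none of the last from a called value. The sign of Dll3 with LIF and noggin turned under median scaling (0.051), in the authors' values (0.0085), with array weights (0.35), and on leaving out single arrays (from -0.51 without LIF_NOG 4 to 0.36 without LIF_NOG 2, with 0.05 without Neurosphere 4), and that of Hes5 with BMP4 against Neurosphere when the row-order set was a block (-0.26). Median scaling moved the median change of all genes by at most 0.087. For genes named from the lists, 1562 of 1656 values were kept, 89 lost a call, 3 gained one and 2 turned, both of the uncalled Tle1 with BMP4 against Neurosphere (0.18 over the mean of its probes, 0.12 within set B).

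Counts of further pathway genes called moved with the set as a block to 17 (BMP4 against Neurosphere) and 10 (BMP4 against LIF_NOG), and within 1 set to 5 (LIF_NOG against Neurosphere), 17 and 7. With array weights, which gave LIF_NOG 2 the lowest weight (0.246), LIF_NOG against Neurosphere had 23 of the 46 pathway genes and 7 bHLH genes called, and within set A 2 bHLH genes. Leaving out 1 array gave 8 to 20 pathway and 3 to 7 bHLH genes there, both highest without LIF_NOG 2. Within 1 set the counts of all genes were 1694, 3805 and 2316; these fits hold fewer arrays. The cause of the other moves was not tested.

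Replicate numbers were not used as pairs in the main fit, and whether they pair the samples is not settled. Same-numbered arrays had correlations of their deviations from -0.05 to 0.26, and in each comparison at least 1 was under 0.1. Between BMP4 and LIF_NOG every array correlated best with its own number (0.06 to 0.20, against at most 0.03 for another number). In the other comparisons some arrays did and some did not. With the replicate number as a block 6, 9 and 9 members were called in place of 5, 9 and 9, Dll1 with LIF and noggin being added (adjusted p = 0.0353 with limma), and 3596, 5919 and 4828 genes in all.

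Signal over background limits Hey2 and Dll3, which lay near the detection floor in at least 1 group. Nrarp and Dll1 were detected on all arrays but were also dim with BMP4 (log2 5.60 to 6.12 and 5.80 to 6.07). The size of their falls varied between settings.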
